A study of Mus musculus with 20 samples.

Results

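The serotonin receptor genes Htr1a, Htr1b, Htr1f, Htr2a, Htr2c, Htr3a, Htr4, Htr5a, Htr5b and Htr7 were followed across the amygdala and hippocampus of mice trained in conditioned fear (CF). Each of these 10 genes, chosen as the family's listed members and found by its symbol in the platform annotation, was measured by 1 transcript cluster, which is a set of probes that the array summarises as 1 value, among 19938 genes with a transcript cluster of their own. The array held 28853 transcript clusters, of which 21789 carried 1 symbol, 1621 several and 5443 none. Htr1d, Htr2b, Htr3b and Htr6, the 4 further mouse serotonin receptor genes with a cluster of their own, serve as companions.

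The study compared wild-type (WT) mice with mice that lack adenylyl cyclases AC1 and AC8 (DKO), the calcium-stimulated enzymes that make cAMP, to follow transcription during fear memory. Micropunches of each region were taken from male C57BL/6 mice of 2 mo at baseline, 5 min before training, and at 0 hr, 1 hr, 48 hr and 1 wk after a 5 min training trial with 1 foot shock of 0.7 mA for 2 sec. Mice of the 1 wk group had also gone through a 5 min testing trial. RNA of 5 to 10 mice was pooled for each array, with 1 array for each of the 20 combinations of region, genotype and time, so that a group of 1 region and genotype held 5 arrays of different times and no time point was repeated within a group. WT animals were C57Bl/6 mice that were not littermates of the DKO animals. DKO mice came from matings that also produced AC8 rescue mice, had doxycycline until weaning and could carry tetop-AC8 alone or CaMKII-tTA alone. Genotype therefore cannot be told apart from colony, transgene and doxycycline history, and whether both regions came from the same animals is not given in the sources used here.

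Serotonin released by axons of the raphe nuclei acts through receptors that differ in what they switch on. Htr1 and Htr5 receptors couple to inhibitory G proteins and lower cAMP, Htr2 receptors couple to phospholipase C, Htr4, Htr6 and Htr7 raise cAMP through adenylyl cyclase, and Htr3 receptors are ion channels. The amygdala and hippocampus are both rich targets of these axons and take part in fear learning.

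The windows before the transcription start of Htr1a, Htr2c and Htr1b are shown because these genes had the largest region difference in each direction and the largest genotype difference described later. Each holds the 250 bases before the start in RefSeq GRCm38.p6, written 5′ to 3′ along the gene's strand, and capitals mark the GC box GGGCGG.
Htr1a (chr13:105443443-105443692, + strand): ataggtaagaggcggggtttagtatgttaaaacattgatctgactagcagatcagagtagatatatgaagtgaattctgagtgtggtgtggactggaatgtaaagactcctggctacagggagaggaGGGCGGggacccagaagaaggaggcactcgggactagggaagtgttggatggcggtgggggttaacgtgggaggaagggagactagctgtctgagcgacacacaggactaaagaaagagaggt
Htr1b (chr9:81633833-81634082, - strand): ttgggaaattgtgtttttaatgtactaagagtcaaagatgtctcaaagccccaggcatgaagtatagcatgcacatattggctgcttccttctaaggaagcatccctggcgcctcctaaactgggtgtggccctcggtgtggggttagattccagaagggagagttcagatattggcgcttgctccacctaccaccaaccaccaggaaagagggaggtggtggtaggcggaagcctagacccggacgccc
Htr2c (chrX:146962263-146962512, + strand): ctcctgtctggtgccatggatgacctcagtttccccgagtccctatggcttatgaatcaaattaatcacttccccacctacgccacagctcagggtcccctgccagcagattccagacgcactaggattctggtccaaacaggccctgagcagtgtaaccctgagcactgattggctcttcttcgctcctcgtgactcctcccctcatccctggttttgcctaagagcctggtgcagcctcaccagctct
The table of windows held 7 of the 10 genes, and Htr3a, Htr4 and Htr5b had no entry in it. On both strands, the cAMP response element TGACGTCA was in 0 of the 7 windows, and 1.55% of all 32851 windows held it. Its shorter form TGACG, which also lies within the full element, was found in Htr7 and in 17.8% of all windows. The GC box GGGCGG was found in Htr1a and Htr2a and in 32.7% of all windows. The E-box CAGCTG was found in Htr5a and in 13.0% of all windows, and the E-box CACGTG was in none of the 7, against 6.02% of all. TATAAA was in none of the 7, against 12.4% of all. A match describes letters only, and no binding was measured in this series.

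Values are log2 expression, so that a difference of 1 is a doubling, and levels of different genes are not compared because their probes differ. Array medians lay between 6.64 and 6.83, pairs of arrays correlated at 0.983 to 0.997 over all clusters, and no arrays were identical. Adcy1 and Adcy8, which code for AC1 and AC8, were lower in DKO mice in both regions, as the labels say. Adcy1 averaged 7.65 in DKO and 8.21 in WT amygdala (SD 0.113 and 0.181, n = 5 each) and 7.72 and 9.29 in hippocampus (SD 0.0523 and 0.176), with adjusted p = 0.0181 and 5.22e-08 by limma. Adcy8 averaged 5.65 and 7.10 in amygdala and 5.41 and 7.41 in hippocampus, with adjusted p = 1.65e-06 and 1.76e-07. Regional markers followed the labels: 10 of 13 hippocampal neuron genes were higher in the hippocampus and 2 lower, and all 10 amygdala neuron genes were lower there.

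Serotonin receptor genes split by region. Of the 10 genes, 2 were higher in the hippocampus (Htr1a and Htr4), 5 were higher in the amygdala (Htr2c, Htr1f, Htr1b, Htr2a and Htr5a), and Htr3a, Htr5b and Htr7 did not pass the test (limma across all clusters, 10 against 10 arrays, Benjamini-Hochberg adjusted p at most 0.05). Over all clusters, 8.95% were called higher and 8.78% lower in the hippocampus. The median difference, hippocampus minus amygdala, was −0.22 over the 10 genes and −0.021 over all clusters. Arrays of both regions did not overlap for Htr4, higher in the hippocampus, or for Htr1b, Htr1f and Htr5a, lower there, and such a separation was seen for 1.99% of all clusters in the higher direction and 1.81% in the lower.

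**Figure D1:**
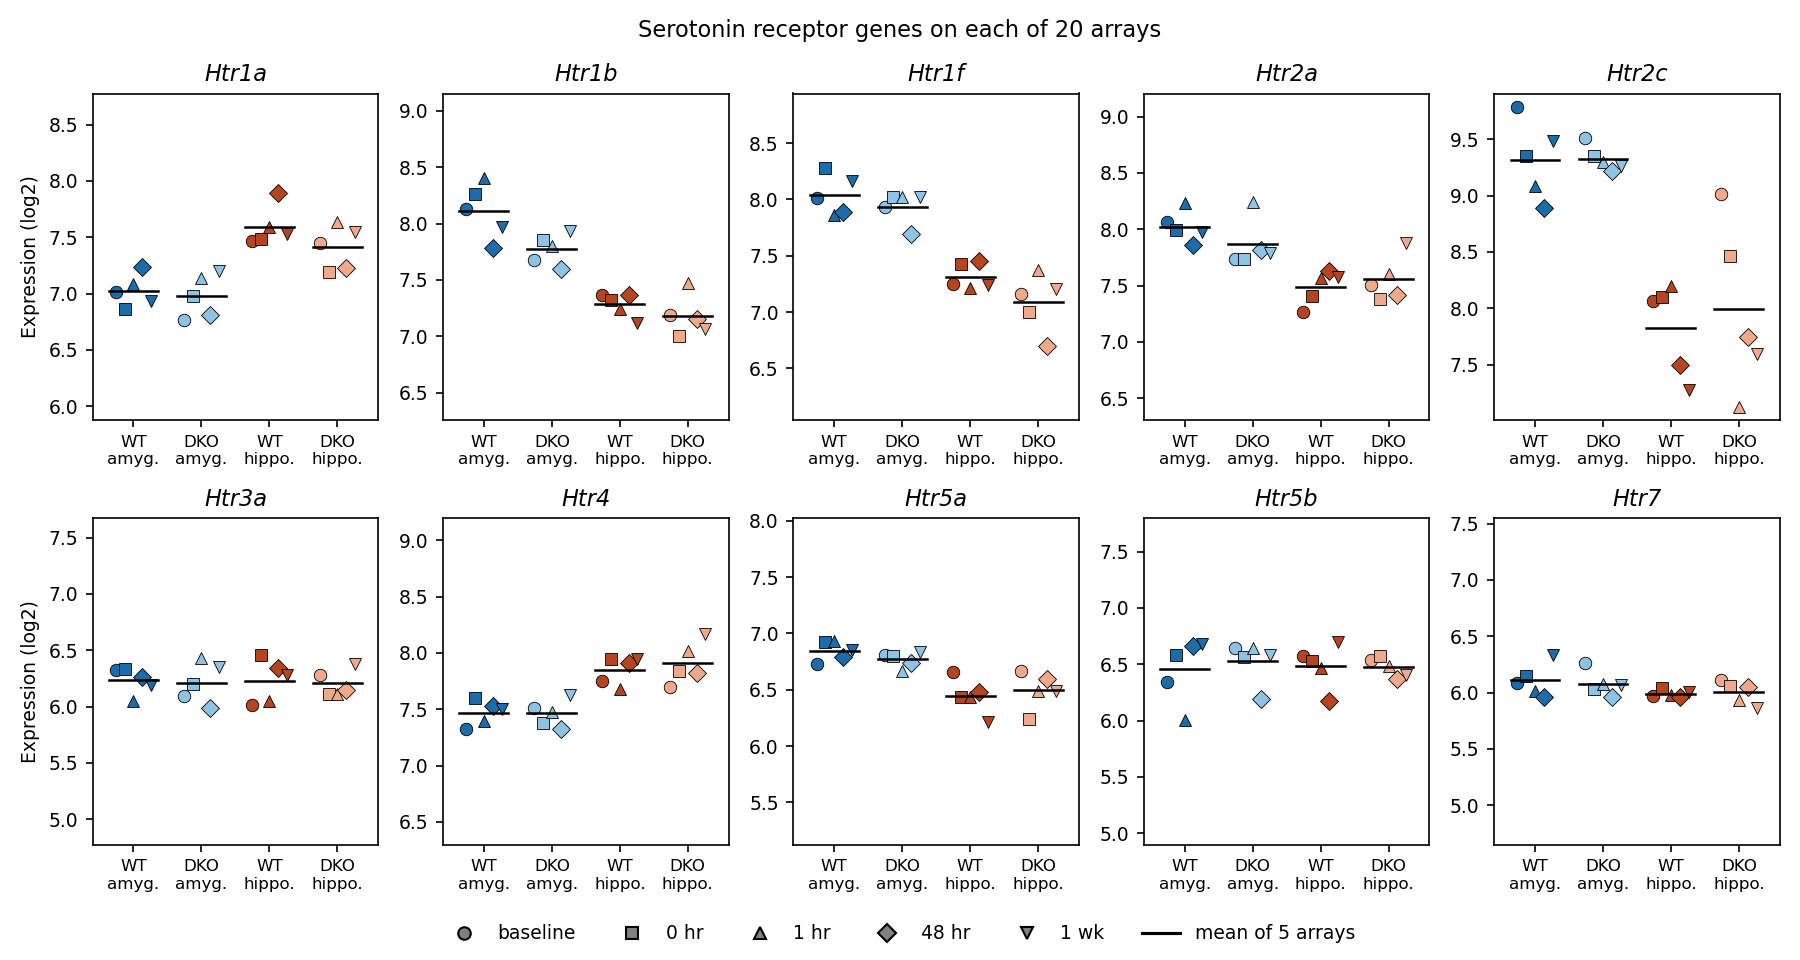
Log2 expression of 10 serotonin receptor genes (1 panel each, every panel spanning the same range of log2 units) on 20 arrays. Columns are the 4 groups of region and genotype, symbols are the time points, and the line is the mean of 5 arrays. Htr1b, Htr1f and Htr2c sit higher in both amygdala groups, Htr1a and Htr4 sit higher in both hippocampus groups, and Htr2c spreads widely within the hippocampus, from 7.12 to 9.01.

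Among receptors coupled to inhibitory G proteins that passed between regions, only Htr1a was higher in the hippocampus. Htr1a (transcript cluster 10407034) is the receptor by which serotonin hyperpolarises hippocampal pyramidal cells and also the autoreceptor of raphe neurons. Its 10 hippocampus arrays had a lowest, median and highest value of 7.19, 7.51 and 7.89, and the amygdala arrays 6.76, 6.99 and 7.24. The difference was 0.50 (SE 0.0729, adjusted p = 1.2e-05, 1.41-fold), with a narrow overlap between the regions, and it was 0.57 among WT and 0.43 among DKO arrays.

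Htr1b (10595324), which restrains transmitter release from axon terminals, ran the other way. It lay at 7.60, 7.90 and 8.41 (lowest, median and highest) in the amygdala and at 7.00, 7.22 and 7.47 in the hippocampus. Every amygdala array was above every hippocampus array, with a difference of −0.71 (SE 0.0717, adjusted p = 4.18e-08, 1.64-fold). Htr1f (10440302), a further member that inhibits adenylyl cyclase, lay at 7.69, 8.02 and 8.28 in the amygdala and at 6.70, 7.23 and 7.45 in the hippocampus. Its regions did not overlap either, with a difference of −0.79 (SE 0.0735, adjusted p = 1.13e-08, 1.73-fold).

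Htr5a (10520355), also coupled to inhibitory G proteins, lay at 6.67, 6.80 and 6.93 in the amygdala and at 6.21, 6.49 and 6.66 in the hippocampus. The regions were separate, although the highest hippocampus array and the lowest amygdala array differed only in the third decimal. The difference was −0.34 (SE 0.0563, adjusted p = 7.5e-05). Htr5b (10357288), its close relative, spanned 6.00 to 6.68 in the amygdala and 6.17 to 6.69 in the hippocampus and gave a difference of −0.0094 (95% interval −0.18 to 0.16). Htr1d, the companion of Htr1b at axon terminals, averaged 6.17 in the hippocampus and 6.82 in the amygdala, a difference of −0.64 (SE 0.0481, adjusted p = 2.47e-10), with no overlap between the regions.

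Both receptors that act through phospholipase C were higher in the amygdala, and Htr2c had the largest region difference of the 10 genes. Htr2c (10602261), whose RNA is edited and which is also abundant in the epithelium of the choroid plexus, lay at 8.89, 9.32 and 9.79 in the amygdala and at 7.12, 7.91 and 9.01 in the hippocampus. The difference was −1.41 (SE 0.174, adjusted p = 1.04e-06, 2.67-fold). Only the baseline DKO hippocampus array, at 9.01, lay above the lowest amygdala array, at 8.89.

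Htr2a (10416406), the receptor through which hallucinogens act, lay at 7.74, 7.92 and 8.25 in the amygdala and at 7.27, 7.54 and 7.87 in the hippocampus. Its difference was −0.42 (SE 0.0726, adjusted p = 0.000111), with overlapping arrays. It was −0.53 (adjusted p = 0.000979) among WT arrays and −0.31 among DKO arrays, where it no longer passed (adjusted p = 0.0515). Htr2b, the companion of the same type, differed by −0.11 (SE 0.0639, adjusted p = 0.253).

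Receptors that raise cAMP gave a mixed picture. Htr4 (10456161), which stimulates adenylyl cyclase, lay at 7.32, 7.49 and 7.63 in the amygdala and at 7.68, 7.88 and 8.17 in the hippocampus. Every hippocampus array was above every amygdala array, with a difference of 0.41 (SE 0.06, adjusted p = 1.24e-05, 1.33-fold). Htr7 (10467182), which also stimulates adenylyl cyclase, spanned 5.96 to 6.33 in the amygdala and 5.87 to 6.11 in the hippocampus, a difference of −0.096 that did not pass (SE 0.0502, adjusted p = 0.216, 95% interval −0.20 to 0.0077). Htr6, the companion of this type, differed by −0.17 (SE 0.0673, adjusted p = 0.0905).

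The channel subunit Htr3a (10593233), which marks a class of cortical interneurons, spanned 5.99 to 6.44 in the amygdala and 6.01 to 6.46 in the hippocampus. The difference was −0.0046 (SE 0.0659, 95% interval −0.14 to 0.13). Its companion subunit Htr3b differed by −0.11 (SE 0.0696, adjusted p = 0.332). Htr3a, Htr5a, Htr5b and Htr7 had mean levels below the median of all clusters, whereas the other 6 lay above it, and 3 of these 4 dim clusters were the ones that did not pass.

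**Figure D2:**
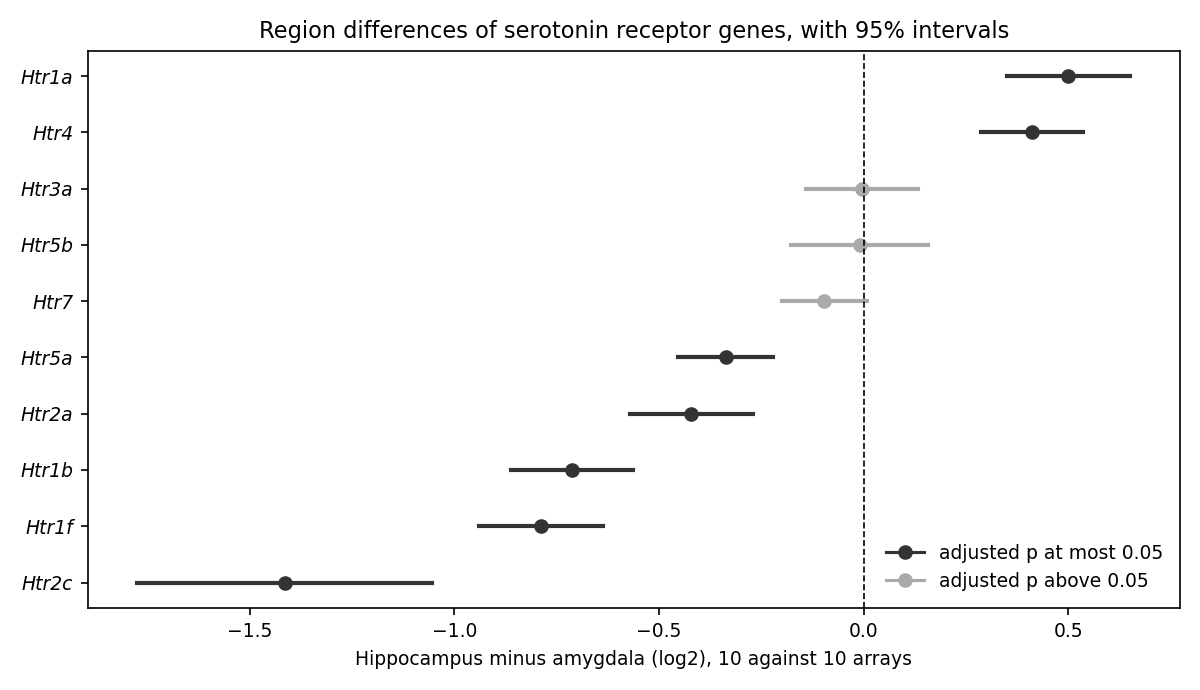
Region differences of the 10 genes (points, hippocampus minus amygdala, log2) with 95% intervals (lines), ordered by size, each from 10 against 10 arrays. Dark genes passed at an adjusted p of at most 0.05, with Htr2c at −1.41 and Htr1a at 0.50 as the extremes, and the intervals of Htr3a, Htr5b and Htr7 reach across 0.

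These are punches of bulk tissue, in which fewer cells of a type and less RNA per cell cannot be told apart. Markers of neighbouring tissue also moved with region. Of 14 genes of striatal projection neurons, 11 were lower in the hippocampus, and the mean of the list spanned 7.96 to 8.70 in the amygdala and 7.30 to 7.47 in the hippocampus. Of 12 genes of thalamic neurons, 10 were higher in the hippocampus, where their mean spanned 7.20 to 7.93 against 6.80 to 6.97. Of 13 interneuron genes, 4 were higher and 7 lower in the hippocampus. All 7 oligodendrocyte genes and 3 of 7 astrocyte genes were higher there, as were 5 of 10 meningeal genes with 1 lower, whereas 8 of 10 ependymal genes were lower and none of 7 microglial genes passed. The part of these cell types in the region differences of the receptor genes was not tested. Of 24 choroid plexus genes, 1 was higher and 0 lower in the hippocampus, and with their mean as a covariate the difference of Htr2c was −1.35 (adjusted p = 2.11e-09).

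Genes of the receptors' signalling partners were called in both directions between regions. Of 21 such genes, 5 were higher and 10 lower in the hippocampus, with a median of −0.15. Kcnj6 and Kcnj3, which code for the potassium channels that Htr1a opens through G proteins, were higher in the hippocampus by 1.00 (SE 0.0633, adjusted p = 1.32e-11) and 0.53 (SE 0.0589, adjusted p = 2.28e-07), while the subunit gene Kcnj9 did not pass at −0.073. Genes of the inhibitory G proteins that Htr1 receptors couple to ran the other way, with Gnai1 at −0.27, Gnai2 at −0.15, Gnao1 at −0.20 and Gnaz at −0.36, all called lower, and Gnai3 at 0.14, not called. S100a10, whose product binds Htr1b and Htr4 receptors and brings them to the cell surface, was lower in the hippocampus, with a difference of −0.93 (SE 0.0707, adjusted p = 3.01e-10), in the direction of Htr1b and against that of Htr4. Of genes that couple Htr2 receptors to phospholipase C, Plcb4 and Gnaq were higher in the hippocampus by 0.59 and 0.31. Gna11 was lower, with a difference of −0.17 (adjusted p = 0.0301), and Plcb1 did not pass at −0.17 (adjusted p = 0.0771). The RNA editing enzyme gene Adarb1 was higher in the hippocampus by 0.40 (adjusted p = 1.12e-06). Rgs4, which shortens G protein signals, was lower there, with a difference of −0.74 (adjusted p = 1.19e-08). The other genes called lower were Grk5 (−0.40) and Arrb1 (−0.17), which act when receptors are desensitised, and the G protein gene Gnal (−0.26).

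Of 8 genes of serotonin synthesis, transport and breakdown, 2 were higher and 1 lower in the hippocampus, against 8.95% and 8.78% of all clusters. Ddc, which makes serotonin from its precursor and also makes dopamine, was lower, with a difference of −0.62 (SE 0.0578, adjusted p = 1.14e-08). Gch1, needed for the cofactor of tryptophan hydroxylase, was higher by 0.38 (SE 0.0921, adjusted p = 0.00406) and Tph1 by 0.17 (SE 0.0581, adjusted p = 0.0446). Both clusters were dim, with hippocampal and amygdalar means of 5.55 and 5.17 for Gch1 and 5.91 and 5.74 for Tph1. The median over all clusters was 6.75. Tph2 and Slc6a4, the hydroxylase and the transporter of serotonin neurons, whose cell bodies lie in the raphe, averaged 4.93 and 5.88 in the hippocampus and did not pass (−0.034 and −0.045).

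Between genotypes, none of the 10 receptor genes passed in either region (limma, 5 against 5 arrays with the time points taken as replicates, adjusted p at most 0.1). Of all clusters, 0.097% passed in the amygdala and 0.118% in the hippocampus. Differences, DKO minus WT, ran from −0.34 to 0.070 in the amygdala and from −0.23 to 0.16 in the hippocampus, and 1 gene of 10 in each region had an unadjusted p under 0.05, near the 6.82% of all clusters in the amygdala and the 11.4% in the hippocampus that had one. Both genes are described for their values only. By the methods' t-test with the same adjustment, the count was also 0 in both regions. None of the 10 passed the limma test for a genotype difference that varied with region (adjusted p at least 0.371), with 0.0104% of all clusters called. The estimates, hippocampus minus amygdala, ran from −0.13 to 0.23 (SE 0.10 to 0.35), so a difference of that size is not excluded.

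Htr1b in the amygdala had the largest genotype difference of the 20. At baseline, 0 hr, 1 hr, 48 hr and 1 wk, WT amygdala arrays were at 8.13, 8.26, 8.41, 7.79 and 7.97. DKO amygdala arrays were at 7.68, 7.86, 7.80, 7.60 and 7.94. DKO lay below WT at each of the 5 times, by more until 1 hr than later, although the groups overlapped. The difference was −0.34 (SE 0.108, 95% interval −0.57 to −0.11, adjusted p = 0.646). After further quantile normalization it was −0.25, and with each array centred on its median −0.35.

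The mean of 14 striatal genes on the same WT arrays was 8.70, 8.39, 8.65, 8.19 and 8.10, and on the DKO arrays 8.06, 8.04, 7.96, 8.04 and 8.13. The 3 arrays highest in Htr1b were the 3 highest in striatal genes. With the striatal mean as a covariate, the Htr1b difference was −0.10 (adjusted p = 0.965 by limma). This mean itself spanned 8.10 to 8.70 in WT and 7.96 to 8.13 in DKO amygdala, so the fit cannot separate it from genotype. The part of striatal tissue in the Htr1b difference was not tested. Pde10a, Rgs9 and Drd1 of the striatal list differed by −0.60, −0.59 and −0.34 between genotypes in the amygdala. The median over the list was −0.37, and 0 of the 14 passed.

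**Figure D3:**
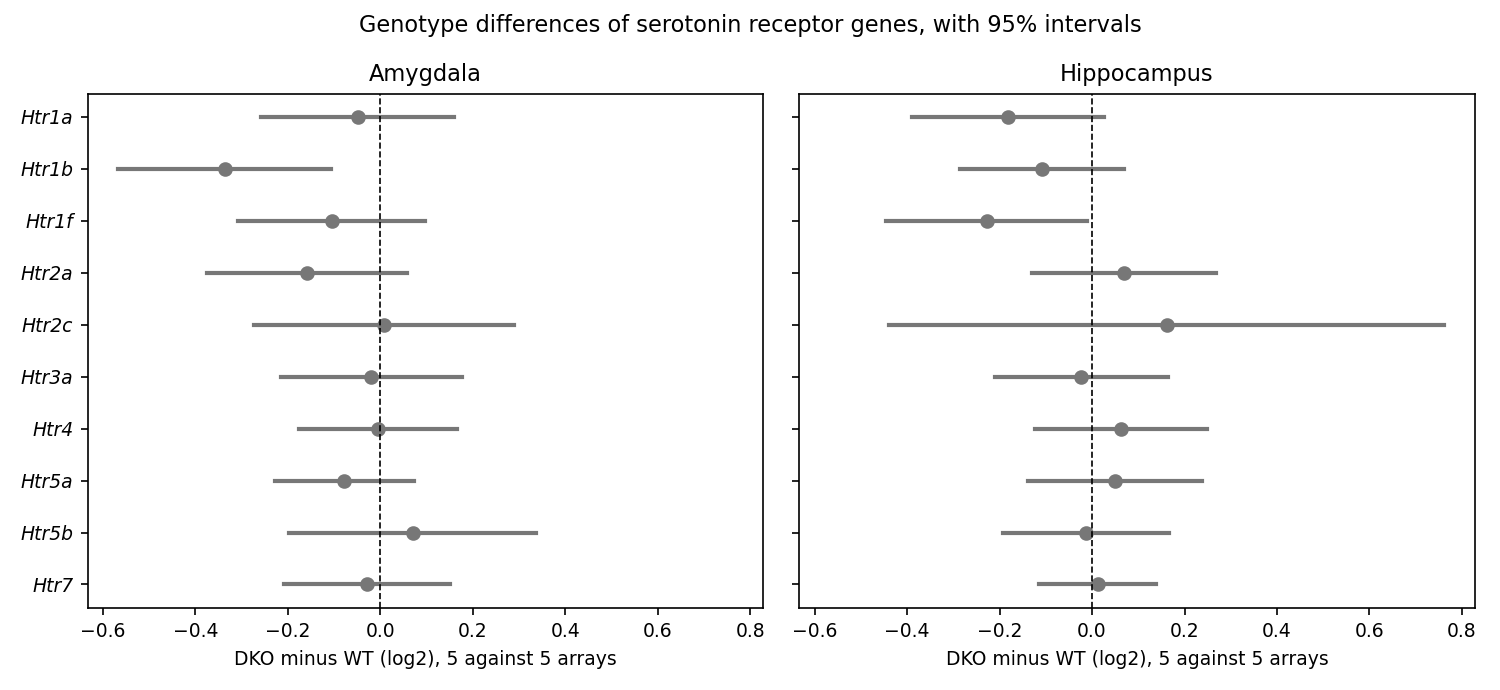
Genotype differences of the 10 genes (points, DKO minus WT, log2) with 95% intervals (lines) in amygdala and hippocampus, each from 5 against 5 arrays. None passed an adjusted p of 0.1, and the intervals of Htr1b in the amygdala (−0.57 to −0.11) and Htr1f in the hippocampus (−0.44 to −0.011) leave out 0.

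Htr1f in the hippocampus was the other gene with an unadjusted p under 0.05. In time order from baseline to 1 wk, its WT hippocampus arrays were at 7.24, 7.43, 7.21, 7.45 and 7.24. Its DKO hippocampus arrays were at 7.16, 7.00, 7.37, 6.70 and 7.21. The groups overlapped, and the 48 hr and 0 hr arrays of DKO were the lowest of the 10. The difference was −0.23 (SE 0.102, 95% interval −0.44 to −0.011, adjusted p = 0.421). The thalamic list spanned 7.20 to 7.67 in WT and 7.59 to 7.93 in DKO hippocampus. Of its 12 genes, 1 passed (Vav3, higher in DKO by 0.61, adjusted p = 0.00752 by limma), with a median of 0.29 over the list. With the list's mean as a covariate, the Htr1f difference was 0.039 (adjusted p = 0.928). The list's mean went largely with genotype on these arrays, so the fit cannot separate them. The part of thalamic tissue in the Htr1f difference was not tested.

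None of the 8 genes of serotonin handling and none of the 21 signalling partners passed between genotypes in either region. The 4 companion receptors did not pass either.

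After training, none of the 10 receptor genes passed against baseline at any time (limma, the 4 arrays of a time against the 4 baseline arrays, with group as a block, adjusted p at most 0.05). Of all clusters, 0.00347% passed at 0 hr, 0.0243% at 1 hr, 0.0% at 48 hr and 0.00347% by 1 wk. The receptor genes with an unadjusted p under 0.05 numbered 0, 2, 1 and 2 of 10 in the same order, and 2.58%, 6.16%, 3.59% and 3.12% of all clusters had one. Htr2c was among them at 1 hr, 48 hr and 1 wk.

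Htr2c gave the widest spread of the 10 genes once each region was centred (SD 0.431 over 20 arrays), with 0.0974 to 0.205 for the other 9. At baseline, 0 hr, 1 hr, 48 hr and 1 wk, it was at 9.79, 9.35, 9.08, 8.89 and 9.49 in WT amygdala. It was at 9.51, 9.35, 9.30, 9.22 and 9.26 in DKO amygdala. In both groups the baseline array was the highest.

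In WT hippocampus, Htr2c was at 8.07, 8.10, 8.20, 7.50 and 7.27. In DKO hippocampus it was at 9.01, 8.47, 7.12, 7.75 and 7.60. The low arrays were those of 48 hr and 1 wk in WT and those of 1 hr, 48 hr and 1 wk in DKO. Over the 4 groups, the change from baseline was −0.28 at 0 hr, then −0.67, −0.76 and −0.69 at the later times in order (SE 0.22 each), with adjusted p = 1, 0.727, 1 and 1 by limma.

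Every group has 1 array a time, so single changes have no replicate check and no test. Of the 160 changes of 10 genes on 16 arrays, 6 were past 1.5-fold, all of them lower and all of them Htr2c. Over all clusters and the same 16 arrays, 0.533% of changes were past 1.5-fold lower and 0.621% higher. The 6 were −0.71 at 1 hr and −0.90 at 48 hr in WT amygdala, −0.79 at 1 wk in WT hippocampus, and −1.89, −1.27 and −1.41 at 1 hr, 48 hr and 1 wk in DKO hippocampus. Htr2c was lower than baseline on 14 of 16 arrays, which share 4 baseline arrays, the exceptions being WT hippocampus at 0 hr and 1 hr (0.030 and 0.13).

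**Figure D4:**
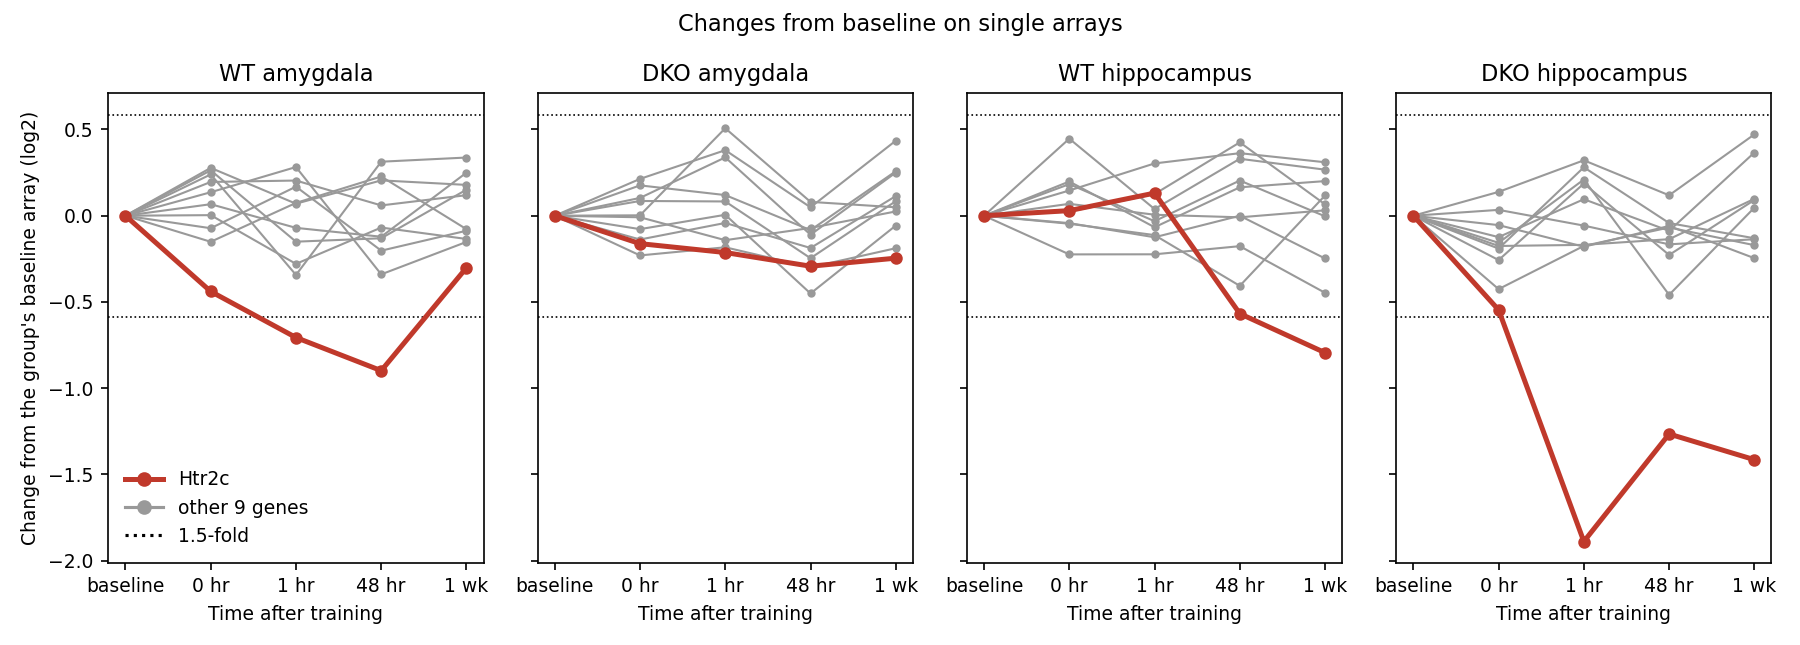
Changes of the 10 genes from the baseline array of the same group (log2) at each time after training, 1 panel a group, with dotted lines at 1.5-fold. Points are single arrays of separate pools of mice, joined only to follow a gene. Htr2c (red) passes the lower line on 6 arrays and reaches −1.89 in DKO hippocampus at 1 hr, while the other 9 genes (grey) stay within the lines.

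Choroid plexus genes varied together with Htr2c in the hippocampus. The mean of 24 of them ranged from 6.56 to 7.72 over all arrays. In the hippocampus, the 5 arrays highest in Htr2c were the 5 highest in this mean, at 7.31 to 7.72 against 6.57 to 6.82 for the other 5. In the amygdala, where arrays were ranked in the same way, 3 of the 5 highest were shared, so the orders differed. Ttr, the choroid plexus gene for transthyretin, differed from baseline by −3.09, −2.33 and −3.22 on the DKO hippocampus arrays of 1 hr, 48 hr and 1 wk, where Htr2c lay farthest below its baseline. At 0 hr in the same group, Htr2c differed by −0.55 but Ttr by only −0.0097. The mean of the 24 choroid plexus genes differed there by −0.24, in the direction of Htr2c. In DKO amygdala at 0 hr, Ttr differed by −2.90 but Htr2c by only −0.16. The part of choroid plexus tissue in the Htr2c values was not tested beyond a fit with this mean as a covariate.

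Htr2c and the choroid plexus mean changed from baseline in the same direction on 7 of 8 amygdala arrays and on 7 of 8 hippocampus arrays. The hippocampal exception was WT at 0 hr, with changes of 0.030 and −0.060. On single amygdala arrays the pair could still lie apart. In WT amygdala at 1 wk, Htr2c differed from baseline by −0.30 while the choroid plexus mean differed by 0.18. In DKO amygdala at 0 hr, the choroid plexus mean differed from baseline by −0.91 and Htr2c by −0.16. With the choroid plexus mean as a covariate, the differences of Htr2c from baseline over the 4 groups were 0.066, −0.32, −0.28 and −0.39 in time order, with adjusted p from 0.999 to 1. This fit took 1 slope for both regions, so it cannot follow a relation that differs between them.

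**Figure D5:**
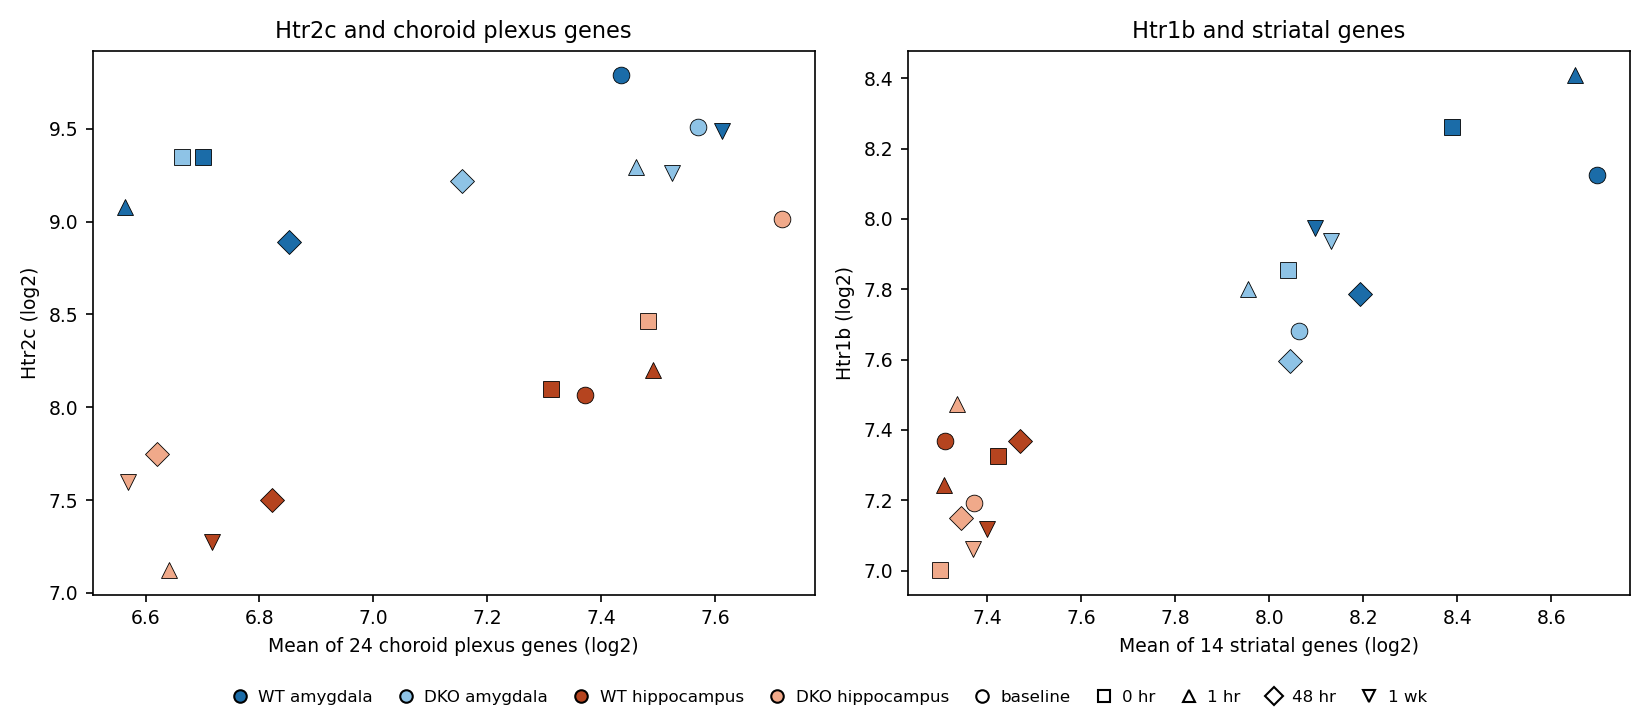
Left, Htr2c against the mean of 24 choroid plexus genes, and right, Htr1b against the mean of 14 striatal genes (all log2), with 1 point an array, colours for groups and symbols for times. At left the hippocampus arrays fall into a high set (Htr2c 8.07 to 9.01) and a low set (7.12 to 7.75), with the amygdala arrays above both except 1. At right the WT amygdala arrays of baseline, 0 hr and 1 hr are highest on both axes.

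Outside Htr2c, the largest single change was that of Htr2a in DKO amygdala at 1 hr, 0.51 (1.42-fold). Its arrays there were at 7.74, 7.74, 8.25, 7.82 and 7.79 from baseline to 1 wk, with the 1 hr array alone above 8. Over the 4 groups, Htr2a was 0.27 above baseline at 1 hr (SE 0.0996, 95% interval 0.060 to 0.48, adjusted p = 0.777).

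Htr4 was next, with a change of 0.47 in DKO hippocampus at 1 wk (1.39-fold). From baseline to 1 wk it was at 7.70, 7.84, 8.02, 7.82 and 8.17 in DKO hippocampus and at 7.75, 7.95, 7.68, 7.91 and 7.95 in WT hippocampus. The baseline array was the lowest in DKO and the 1 hr array in WT. Over the 4 groups, Htr4 was 0.24 above baseline at 1 wk (SE 0.0868, 95% interval 0.060 to 0.42, adjusted p = 1).

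Whether the change depended on region or genotype was fitted in the same way, and 0 of the 10 genes passed at any time. The genotypes served as replicates for the comparison of regions, and the regions for the comparison of genotypes. Because the regions may share animals, p-values of the latter need not measure the spread between animals. Unadjusted p was under 0.05 for Htr5a in the difference between regions at 0 hr (−0.42, hippocampus minus amygdala, SE 0.168) and 1 wk (−0.38, SE 0.168), both with adjusted p = 1, and 1.16% and 2.16% of all clusters had one. Between genotypes, it was so for Htr1a (−0.42, DKO minus WT, SE 0.149, adjusted p = 0.331) and Htr1f (−0.39, SE 0.168, adjusted p = 0.36) at 48 hr and for Htr7 at 1 wk (−0.36, SE 0.144, adjusted p = 0.228). Of all clusters, 13.1% had one at 48 hr and 17.9% at 1 wk. These 3 differences depended on the scaling of the arrays. After further quantile normalization they were −0.20 for Htr1a, −0.25 for Htr1f and −0.18 for Htr7, and with each array centred on its median −0.22, −0.19 and −0.22. The 48 hr differences stand against a median of −0.15 over all clusters in the same comparison.

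The genes whose region-centred values ran most like those of the 4 most variable receptors are given as a description over 20 arrays, which share the same RNA pools across genes. For Htr2c they were Slc2a12, Frem1 and the choroid plexus gene Clic6 (Pearson r 0.83, 0.83 and 0.80), with r of 0.54 to 0.74 in the amygdala and 0.89 to 0.95 in the hippocampus. For Htr1b they were Etv5, Samd12 and Lrrk2 (0.82, 0.80 and 0.77). Samd12 and Lrrk2 were alike in the amygdala (0.92 and 0.90) and less so in the hippocampus (0.46 and 0.36), whereas Etv5 gave 0.83 and 0.81. For Htr1f they were Crhbp, Gm19410 and Ccn3 (0.79, 0.75 and 0.74). Their r was 0.91, 0.61 and 0.42 in the amygdala and 0.75, 0.82 and 0.87 in the hippocampus, and their Spearman correlations were 0.84, 0.58 and 0.57. For Htr5b they were Mafa, Kiss1 and Hfe (0.83, 0.79 and 0.79), with r of 0.78 to 0.83 in the amygdala and 0.76 to 0.84 in the hippocampus. Each r is the highest found in a search over genes, so its size carries no test.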

How the data were processed

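Pooled RNA was hybridised to Affymetrix Mouse Gene 1.0 ST arrays. The authors normalised the data by RMA in the Affymetrix Expression Console and deposited log2 values for each transcript cluster. RMA comprises background correction, quantile normalization and summarising of probes, and medians of the deposited arrays still lay between 6.64 and 6.83. The version of the Expression Console and the genome build of the array annotation are not given in the sources used here. Symbols came from the platform annotation. No depth applies to arrays, and their number limits the precision.

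Differences were fitted over all 28853 transcript clusters, with no filter, by limma 3.58.1 in R 4.3.3 (lmFit and eBayes) with Benjamini-Hochberg adjustment. The region and genotype-by-region fits used the 4 group means of region and genotype, and changes from baseline held group as a block. The genotype fits took the 5 times of a region as replicates, after the study, so p-values measure the spread between pools and times. Tables and plots used Python 3.11.15, pandas 2.3.3 and matplotlib 3.10.9. The scripts were tested on simulated data.

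Time points could pair arrays, so a fit with the time point as a block was also run. Other alternatives were normalization, centring, a filter on dim clusters, variance models, array weights, marker lists as covariates and leaving out each array. The text names all 10 receptor genes, the 4 companions, signalling and handling genes that passed or illustrate a list, marker genes that set a list's level and, for the 4 receptors with the largest spread, the 3 genes most alike (SD at least 0.2). The genes and lists were chosen with earlier results of these data known.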

Additional observations from a re-analysis of the deposited data

Results flagged for a closer look

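Of 40 sets of 5 arrays (10 genes in 4 groups), 3 held an array that stood far from the other 4 by Dixon's test, and chance alone picks out about 1 in 20. Sets of the same group share their arrays and are not independent, so this rate is only a guide. All 3 were in DKO amygdala. Htr2a was highest at 1 hr, at 8.25 against 7.82 for the next array. Htr1f was lowest at 48 hr, at 7.69 against 7.94, and Htr5b was lowest at 48 hr, at 6.19 against 6.56. Over all clusters, the median change of the DKO amygdala array of 48 hr from its baseline was −0.13. Each is 1 pool of mice with no repeat.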

How the results depend on the processing

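With an added limit of 1.5-fold, 3 of the 7 region differences remained (Htr1b, Htr1f and Htr2c), and Htr1a (0.50), Htr4 (0.41), Htr2a (−0.42) and Htr5a (−0.34) no longer passed. Htr2a also missed among DKO arrays (−0.31). The 7 kept their direction in every alternative that measured them, and a filter at the median level left out Htr3a, Htr5a, Htr5b and Htr7. Without 1 array each, Htr2c ranged from −1.54 to −1.31, Htr3a from −0.033 to 0.023 and Htr5b from −0.066 to 0.030. Further quantile normalization and median centring turned the sign of Htr3a (0.022 and 0.017) and of Htr5b (0.013 and 0.012), and Htr5b also turned among WT arrays (0.032) and with the choroid plexus mean as covariate (0.0034). Htr1f between genotypes in the hippocampus turned with the thalamic covariate (0.039), and Htr2c at 0 hr with the choroid plexus covariate (0.066). The thalamic mean went largely with genotype, so the former fit cannot separate them. All 10 hippocampal and 6 of 10 amygdalar genotype differences changed sign in some alternative, and the count of receptor genes that passed between genotypes or against baseline stayed at 0 in all of them. Whether the 2 regions of 1 genotype and time share animals is not given in the sources used here. With the time point as a replicate block, the counts were 7 for region and 0 for genotype in both regions, so the block changed no call.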
